A study of Mus musculus with 20 samples.

Results

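In cells sorted by an endothelial reporter from mouse sciatic nerve, 5 genes had higher RNA levels at 7 days after injury than in uninjured nerve. At 14 days the 5 genes were back near the uninjured level. They were Crmp1, Madcam1, Mcm10, Slco4a1 and Smpdl3b, 5 of the 55376 genes in the deposited tables. They were chosen by a rule on CPM, a gene's count per 1000000 counts of its library. For each gene the mean of log2(CPM + 1) was taken in uninjured nerve, at 7 days and at 14 days. A gene was kept when the mean at 7 days exceeded the uninjured mean by at least 2, the mean at 14 days exceeded the uninjured mean by at most 0.5, and the mean CPM at 7 days was at least 5. Predicted gene models were dropped. Because these values chose the genes, the time course below is a description and carries no test.

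Bulk sequencing of polyA RNA was done on sorted cells of adult mice. In the Tomato experiment, Cdh5(PAC)-CreERT2, an inducible Cre driven by the endothelial cadherin gene, switched on a TdTomato reporter at the R26 locus in Plxnd1 WT animals. The intact group (5 libraries) was made from uninjured nerves, pooled, and the injured groups from lesion site tissue, called the bridge, at 7 days post-injury (7 dpi, 5 libraries) and 14 days post-injury (14 dpi, 4 libraries). In the Cherry experiment all cells were from the bridge at 7 dpi and were sorted by a Kdr-Cherry reporter. They came from mice with Cre-driven endothelial deletion of Plxnd1 (Cdh5 CreER with floxed Plxnd1, KO, 3 libraries) or from control mice (Plxnd1 WT, 3 libraries). Whether the controls carried the Cre is not given in the sources used here. Nerves of both experiments were pooled and digested for 30 min at 37 C, and reporter-positive cells without CD45, the leukocyte antigen, were sorted. The design text speaks of a bridge and the condition label of a crush. The labels name 2 batches, 1133 and 1292, and each holds libraries of every group. No label names the animals behind a library, so p-values measure the spread between these libraries, which may be technical.

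After a nerve is cut or crushed, blood vessels grow into the wound ahead of the repair cells. Sprouting endothelial cells divide, rearrange their cytoskeleton, change the adhesion molecules that receive leukocytes, and lose transporters of the blood-nerve barrier for a time. Plexin-D1, the product of Plxnd1, is an endothelial receptor for class III semaphorins and restrains and steers vessel growth. The 5 genes belong to different parts of this biology. Mcm10 encodes a factor that helps activate the replicative helicase when DNA synthesis starts. Madcam1 encodes an adhesion molecule of the immunoglobulin superfamily that binds a gut-homing integrin and L-selectin on lymphocytes and is best known from venules of the gut. Crmp1 encodes a collapsin response mediator protein, a cytosolic protein that acts on the cytoskeleton downstream of semaphorins in neurons. Slco4a1 encodes a transporter of organic anions such as thyroid hormones and prostaglandins. Smpdl3b encodes a lipid-anchored phosphodiesterase related to acid sphingomyelinase, known in macrophages for its effect on membrane lipids and Toll-like receptor signalling.

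The 5 genes lie on 4 chromosomes, with coordinates of the deposited tables in GRCm38. Crmp1 is at chr5:37242080-37292133 on the plus strand, Madcam1 at chr10:79664559-79668537 on the plus strand and Smpdl3b at chr4:132732966-132757252 on the minus strand. Mcm10 is at chr2:4989714-5012791 on the minus strand and Slco4a1, on the same chromosome, at chr2:180456245-180474867 on the plus strand. All 5 are annotated as protein-coding, and their exons add up to between 1436 bases (Madcam1) and 4954 bases (Mcm10). Among them Crmp1 alone overlaps another gene, Evc on the opposite strand, and they share 0 exonic bases.

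The promoter windows are shown so that the letters of the 5 genes can be compared. Their common time course was set by the selection rule. Each runs from 250 bases before to 50 bases after an annotated RefSeq start (build GRCm38.p6, transcribed strand). All 5 symbols matched, Crmp1 and Slco4a1 with 2 windows each, of which the upstream one is given. Capitals mark matches, on either strand, to the letters searched. These were the CCAAT box (CCAAT), the E2F site (TTTGGCGC, TTTCCCGC, TTTGCCGC or TTTCGCGC), the cell cycle homology region (TTTGAA), the ETS site (CCGGAAGT), the AP-1 site (TGANTCA), the core of the hypoxia response element (ACGTG), the GC box (GGGCGG), the TATA box (TATAAA) and the NF-kappaB site. The windows lie at chr10:79664309-79664608 (Madcam1, plus strand), chr5:37241808-37242107 (Crmp1, plus strand), chr2:5012742-5013041 (Mcm10, minus strand), chr2:180455995-180456294 (Slco4a1, plus strand) and chr4:132757122-132757421 (Smpdl3b, minus strand).
Madcam1: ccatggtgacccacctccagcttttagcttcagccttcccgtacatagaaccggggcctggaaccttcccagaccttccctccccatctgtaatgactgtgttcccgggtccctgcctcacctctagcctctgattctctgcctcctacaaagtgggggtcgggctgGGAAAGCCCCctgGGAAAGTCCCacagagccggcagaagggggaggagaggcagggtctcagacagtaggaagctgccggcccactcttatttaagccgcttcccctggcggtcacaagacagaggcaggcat
Crmp1: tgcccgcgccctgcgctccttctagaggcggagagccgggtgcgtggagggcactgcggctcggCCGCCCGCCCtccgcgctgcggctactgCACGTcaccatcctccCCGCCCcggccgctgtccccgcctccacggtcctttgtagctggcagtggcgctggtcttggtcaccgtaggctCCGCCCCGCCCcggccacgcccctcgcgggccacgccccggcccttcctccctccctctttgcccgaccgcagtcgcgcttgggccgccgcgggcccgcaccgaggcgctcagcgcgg
Mcm10: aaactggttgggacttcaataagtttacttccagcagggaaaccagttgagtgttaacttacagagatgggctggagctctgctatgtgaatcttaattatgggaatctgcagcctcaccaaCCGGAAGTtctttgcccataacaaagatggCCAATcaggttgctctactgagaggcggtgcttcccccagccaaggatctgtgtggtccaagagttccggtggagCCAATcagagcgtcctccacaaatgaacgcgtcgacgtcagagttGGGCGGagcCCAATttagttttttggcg
Slco4a1: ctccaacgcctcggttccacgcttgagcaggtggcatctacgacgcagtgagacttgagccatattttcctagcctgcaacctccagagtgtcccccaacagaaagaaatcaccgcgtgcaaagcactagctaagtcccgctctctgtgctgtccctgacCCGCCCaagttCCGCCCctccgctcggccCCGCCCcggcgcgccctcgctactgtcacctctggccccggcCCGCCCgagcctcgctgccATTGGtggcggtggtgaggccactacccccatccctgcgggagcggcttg
Smpdl3b: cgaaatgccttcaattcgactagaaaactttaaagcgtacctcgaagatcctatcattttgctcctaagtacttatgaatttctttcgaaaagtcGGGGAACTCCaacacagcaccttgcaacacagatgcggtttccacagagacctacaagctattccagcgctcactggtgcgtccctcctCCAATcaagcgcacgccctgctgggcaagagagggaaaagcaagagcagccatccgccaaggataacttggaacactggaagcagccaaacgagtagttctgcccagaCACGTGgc

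No single motif of those searched was found in all 5 windows. The Madcam1 window held 2 NF-kappaB matches, at -83 to -74 and -70 to -61 counted from the annotated start (first transcribed base 1), and the Smpdl3b window held 1, at -155 to -146; 4.51% of all 32851 windows of this length held one. The Mcm10 window held 3 CCAAT boxes, 1 ETS match and 1 GC box, and CCAAT boxes were also in the Slco4a1 and Smpdl3b windows, 1 each. A CCAAT box was in 37.4% of all windows and an ETS match in 3.89%. The Crmp1 window was 77% G and C, against a median of 52.7% over all windows, and held 5 GC boxes, 2 pairs of which overlapped. The Slco4a1 window, at 65.3% G and C, held 4 GC boxes, and 35.7% of all windows held at least 1. The core of the hypoxia response element was matched in the Crmp1 window (1 match) and in the Smpdl3b window (2 matches that overlap, since the letters there read the same on both strands), against 19.6% of all windows. The letters of the E2F site, the cell cycle homology region, the AP-1 site and the TATA box were in 0 of the 5 windows, and in 2.26%, 17.9%, 7.81% and 13.6% of all windows. The Mcm10 window ends in all but the last letter of the E2F form TTTGGCGC, so a match across its edge would not be seen. These matches are letters in a window and say nothing of binding.

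The Tomato libraries held 19.1 to 34.2 M counts each (M, 1000000 counts), and the Cherry libraries 19.3 to 33.8 M. The 20 endothelial marker genes summed to 9538 to 17917 CPM in intact nerve, 11260 to 16624 CPM at 7 dpi and 9411 to 12196 CPM at 14 dpi, and all 20 were detected in every group. RNA of other nerve cells was also present in the Tomato libraries. The 15 fibroblast markers summed to 12403 to 20989 CPM in intact nerve, 5125 to 24508 CPM at 7 dpi and 19961 to 43301 CPM at 14 dpi. The 21 macrophage markers summed to 220 to 517, 249 to 1178 and 175 to 1943 CPM in the same groups. The 15 neutrophil and mast cell markers summed to 7.21 to 21.3, 97.2 to 173 and 29.7 to 53.9 CPM. Of these Kit alone, also an endothelial gene, averaged 8.42, 119 and 38.0 CPM. Ltf, the next highest in each group, averaged 1.30, 0.907 and 0.829 CPM. S100a8 averaged 0.120, 0.136 and 0.278 CPM, and Csf3r 0.290, 0.852 and 0.712 CPM. The 16 lymphocyte and general leukocyte markers summed to 4.66 to 17.3, 17.1 to 39.4 and 7.60 to 82.6 CPM. The 8 perineurial markers summed to 4522 to 7152, 673 to 1694 and 1845 to 3847 CPM, the 16 Schwann cell markers to 634 to 1272, 203 to 297 and 776 to 2597 CPM, and the 7 erythroid markers to 55.8 to 151.6, 11.01 to 54.8 and 56.0 to 105 CPM, so these 3 sums were lower at 7 dpi than in both other groups, without overlap. In the Cherry experiment fibroblast markers summed to 1018 to 3928 CPM in KO libraries and 1242 to 2889 CPM in WT libraries. Perineurial markers summed to 271 to 342 CPM in KO libraries and 466 to 479 CPM in WT libraries, and macrophage markers to 60.0 to 86.5 CPM in KO libraries and 94.2 to 138 CPM in WT libraries, both without overlap. The perineurial difference rested largely on 1 gene, Moxd1, with 50.1, 48.7 and 51.2 CPM in KO libraries and 212, 163 and 136 CPM in WT libraries. Of the 5 perineurial markers tested in KO against WT, edgeR called 1 lower, Moxd1, and 0 higher. Schwann cell markers summed to 145 to 264 CPM in KO libraries and 186 to 580 CPM in WT libraries, which overlapped. The part of these cells in the results was not tested. In bulk samples, fewer cells of a type and less RNA per cell cannot be told apart.

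Few genes that met the 7 dpi conditions of the rule were back near the intact level at 14 dpi. Genes with smaller differences at 7 dpi were not counted here. Of 323 named genes that met the 7 dpi conditions of the rule, 5 met the 14 dpi condition (1.55%). The median 14 dpi minus intact difference over the 323 was 1.44 in mean log2(CPM + 1), with 10% of genes under 0.76 and 10% over 2.52. The difference was at most 0 for 2 genes, Crmp1 and Slco4a1, at most 1 for 58 genes and at least 2 for 74 genes. The 5 genes lay at the low end of a continuous spread. Just below the 14 dpi limit were Smpdl3b (0.45), Mcm10 (0.38) and Madcam1 (0.16), and just above it Nup210, a nuclear pore protein, at 0.54, Pif1, a DNA helicase, at 0.54 and Pask, a kinase, at 0.55. Just past the 7 dpi condition were Smpdl3b (2.19), Slco4a1 (2.26) and Mcm10 (2.39), and just short of it Tedc1 at 1.99, Pkmyt1, a kinase that holds cells before mitosis, at 1.97 and Actg2, a smooth muscle actin, at 1.91. Nearest above the CPM minimum were Madcam1 (8.31 CPM), Slco4a1 (9.33 CPM) and Mcm10 (12.97 CPM), and Plac1 was kept out by it, with a mean of 4.43 CPM at 7 dpi.

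**Figure D1:**
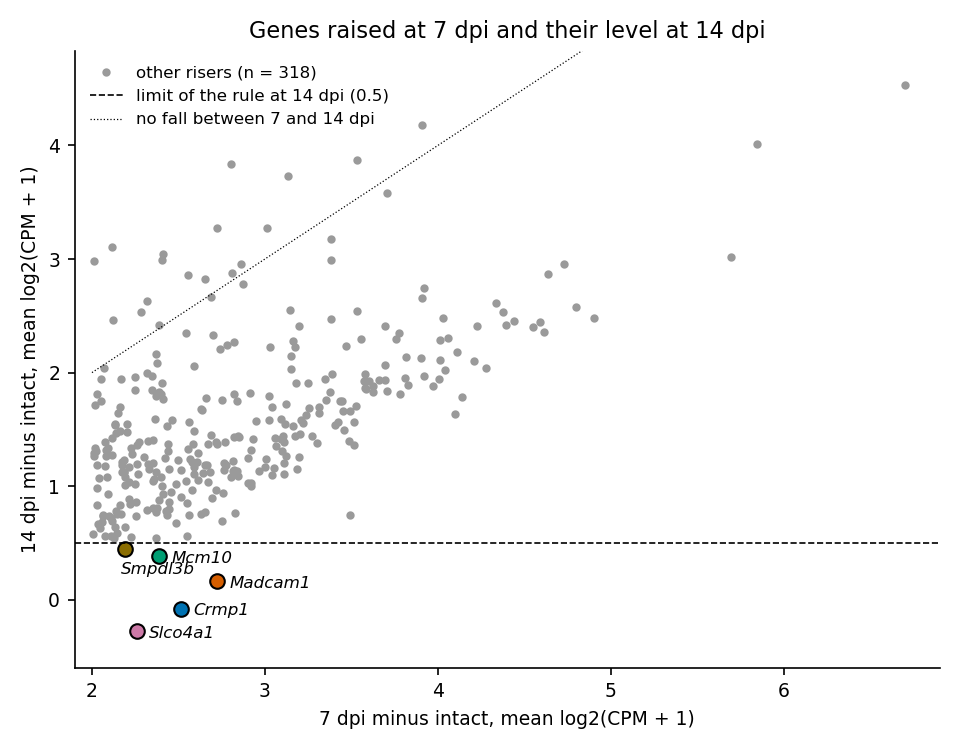
Each point is 1 of the 323 named genes that met the 7 dpi conditions of the rule. The x axis is the 7 dpi minus intact difference and the y axis the 14 dpi minus intact difference, both in mean log2(CPM + 1); the dashed line is the limit of 0.5 and the dotted line marks equal differences. The 5 coloured genes lie under the dashed line at the edge of a continuous cloud whose median is 1.44 on the y axis.

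Madcam1, the lymphocyte adhesion molecule, was low in both other groups of the time course. It had 0.183, 0.399, 0.148, 0.350 and 0.901 CPM in the intact libraries, 5.72, 11.2, 10.1, 6.31 and 8.19 CPM at 7 dpi, and 0.997, 0.0388, 0.439 and 0.866 CPM at 14 dpi. Every 7 dpi library was above every intact and 14 dpi library, and the ranges of intact and 14 dpi libraries overlapped. The mean was 0.396 ± 0.302 CPM in intact nerve (SD, n = 5), 8.31 ± 2.37 CPM at 7 dpi (SD, n = 5) and 0.585 ± 0.435 CPM at 14 dpi (SD, n = 4). On the log2(CPM + 1) scale it was 2.72 higher at 7 dpi than in intact nerve, the greatest difference of the 5, and 0.16 higher at 14 dpi than in intact nerve.

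Other adhesion molecules and chemokines were also higher at 7 dpi, and genes of this class were called higher at 14 dpi too. Of the 24 tested genes of a list of leukocyte adhesion molecules and chemokines that leaves out Madcam1, 14 rose and 3 fell at 7 dpi against intact nerve (edgeR, adjusted p under 0.05), and 14 rose and 3 fell at 14 dpi against intact nerve. The median log2 fold change of the list was 1.31 and 1.52 in these comparisons, and 0.14 between 14 dpi and 7 dpi, where 1 gene rose and 0 fell. In batch 1133 alone 15 were called higher and 0 lower at 14 dpi against intact nerve, and in batch 1292 alone 8 and 2. Over all 20409 genes tested, 15.7% were called higher and 16.3% lower at 7 dpi against intact nerve (32% in all), 6.86% higher and 5.09% lower at 14 dpi against intact nerve (12% in all), and 5.73% higher and 4.2% lower at 14 dpi against 7 dpi (9.93% in all). Medians over all genes were -0.10, 0.00 and 0.06. For Madcam1 the 14 dpi minus intact difference was 5.95% of the 7 dpi minus intact difference, as its selection requires. The other 5 genes of the list that passed the 7 dpi conditions of the rule had kept more than that, at 75.3% for Sele and 76.3% for Selp, the endothelial selectins, 101% for Glycam1, a ligand of L-selectin, 114% for Ccl2 and 67.4% for Cxcl2, both chemokines. Among Madcam1's relatives in the immunoglobulin superfamily, Icam1 averaged 193 CPM in intact nerve, 466 CPM at 7 dpi and 343 CPM at 14 dpi, and Vcam1 166, 172 and 139 CPM in the same groups.

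Crmp1, the semaphorin mediator, had 1.02, 2.70, 2.66, 2.74 and 4.29 CPM in the intact libraries, 19.97, 13.001, 27.7, 20.2 and 17.5 CPM at 7 dpi, and 2.62, 1.75, 2.84 and 2.25 CPM at 14 dpi. The 7 dpi libraries stood clear of both other groups, and the 14 dpi libraries lay within the intact range. The mean was 2.68 ± 1.16 CPM in intact nerve (SD, n = 5), 19.7 ± 5.34 CPM at 7 dpi (SD, n = 5) and 2.36 ± 0.479 CPM at 14 dpi (SD, n = 4). The 7 dpi minus intact difference was 2.52 and the 14 dpi minus intact difference -0.08 in mean log2(CPM + 1). Among the other collapsin response mediators, Dpysl2 averaged 547 CPM in intact nerve, 439 CPM at 7 dpi and 421 CPM at 14 dpi, and Dpysl3 averaged 87.8, 210 and 132 CPM, while Dpysl4 and Dpysl5 stayed under 3.75 CPM in every 7 dpi library. Per kilobase of exon at 7 dpi, Crmp1 was at 5.82, Dpysl2 at 97.1 and Dpysl3 at 34.6 CPM.

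Crmp1 was also read against a list of cytoskeleton and growth cone genes. Without Crmp1, 12 of its 21 tested genes rose and 2 fell at 7 dpi against intact nerve, 5 rose and 2 fell at 14 dpi against intact nerve, and 2 rose and 10 fell at 14 dpi against 7 dpi (edgeR, adjusted p under 0.05). The median log2 fold changes were 1.09, 0.45 and -0.64. The count of 10 that fell was 0 in batch 1133 alone, 6 in batch 1292 alone and 5 without 14 dpi replicate 2. For Crmp1 the 14 dpi difference from intact was -3.10% of that at 7 dpi. The 4 other list genes that passed the 7 dpi conditions were Stmn1, a microtubule destabiliser, which kept 45.5% of its difference at 14 dpi, Tubb6, a tubulin, with 63.9%, Fscn1, an actin bundler, with 71.9% and Marcksl1 with 73.2%. Crmp1 is best known in neurons. The 10 neuron markers summed to 6.70 to 24.9 CPM in intact nerve, 19.4 to 34.4 CPM at 7 dpi and 7.71 to 9.65 CPM at 14 dpi. The 7 dpi sums lay above the 14 dpi sums without overlap and overlapped those of intact nerve. Uchl1 was the highest of the 10, with 5.40 CPM in intact nerve, 21.6 CPM at 7 dpi and 5.89 CPM at 14 dpi. Rbfox3, Calca and Tac1 also had higher means at 7 dpi than in intact nerve. Snap25, Syt1, Gad1, Gad2, Scn9a and Prph had lower ones, with Snap25 at 0.222 and Syt1 at 0.240 CPM at 7 dpi. The part of neuronal RNA in the Crmp1 values was not tested.

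Mcm10, the helicase activator, had 0.695, 1.598, 1.29, 0.668 and 6.48 CPM in the intact libraries, 10.3, 11.4, 17.2, 14.3 and 11.6 CPM at 7 dpi, and 1.73, 5.32, 2.11 and 1.57 CPM at 14 dpi. All 7 dpi libraries were above all others, but intact replicate 5 and 14 dpi replicate 2 were far above the rest of their groups. The mean was 2.15 ± 2.45 CPM in intact nerve (SD, n = 5), 12.97 ± 2.79 CPM at 7 dpi (SD, n = 5) and 2.68 ± 1.77 CPM at 14 dpi (SD, n = 4). The differences from intact were 2.39 at 7 dpi and 0.38 at 14 dpi in mean log2(CPM + 1). The 14 dpi value moved with single libraries: without intact replicate 5 it was 0.76 and without 14 dpi replicate 4 it was 0.52, both past the limit of the rule, without 14 dpi replicate 2 it was 0.09, and in batch 1292 alone it was 0.94. Intact replicate 5 also had the highest median level of 52 other replication genes among intact libraries, 3.205 against 2.33 to 2.65 in log2(CPM + 1), and 14 dpi replicate 2 the highest at 14 dpi, 3.75 against 3.37 to 3.61.

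Genes of DNA replication rose together at 7 dpi and, by the median of the list, came part of the way back. Of 52 tested replication genes besides Mcm10, 50 rose and 0 fell at 7 dpi against intact nerve, with a median log2 fold change of 2.19 (edgeR, adjusted p under 0.05). At 14 dpi against 7 dpi, 40 fell and 0 rose, with a median of -1.30, and at 14 dpi against intact nerve 28 were higher and 0 lower, with a median of 0.87. In batch 1133 alone 7 fell at 14 dpi against 7 dpi and 11 were higher than intact, and in batch 1292 alone 25 and 15. Mcm10 kept 15.97% of its difference at 14 dpi. The 22 other list genes that passed the 7 dpi conditions kept between 26.7% (Brca1, a DNA repair gene) and 64.4% (Rad51ap1, a recombination gene). Their median was 41.1%. All 22 missed the 14 dpi limit, so the rule bounds their range from below. Of the helicase subunits that Mcm10 helps activate, Mcm5 had differences from intact of 3.19 at 7 dpi and 1.26 at 14 dpi, Mcm2 2.17 and 0.75, and Mcm3 2.06 and 0.73 in mean log2(CPM + 1). Mcm4 had 1.00 and 0.02, a smaller difference at 7 dpi with a level at 14 dpi near that of intact nerve. Per kilobase of exon at 7 dpi Mcm10 was at 2.62 CPM and the helicase subunits between 25.5 (Mcm4) and 46.6 CPM (Mcm3).

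**Figure D2:**
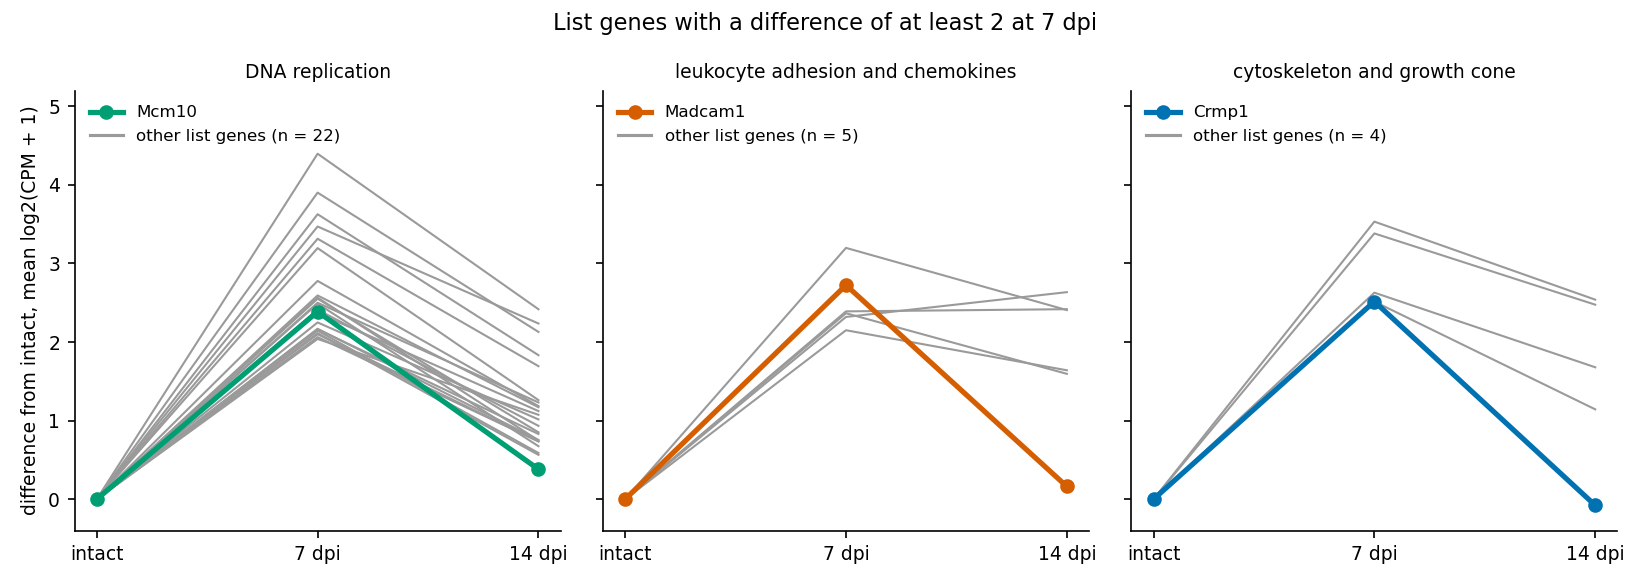
Lines give the difference from intact in mean log2(CPM + 1) at intact, 7 dpi and 14 dpi for the genes of 3 lists that passed the 7 dpi conditions of the rule, with the selected gene in colour and the other list genes in grey. At 14 dpi Mcm10 lies at 0.38 under 22 other replication genes, Madcam1 at 0.16 under 5 other adhesion genes and chemokines, and Crmp1 at -0.08 under 4 other cytoskeleton genes, an order that the selection fixes.

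Slco4a1, the organic anion transporter, had 0.512, 1.10, 1.78, 0.0954 and 2.66 CPM in the intact libraries, 7.80, 4.94, 15.7, 9.48 and 8.74 CPM at 7 dpi, and 0.892, 0.349, 2.14 and 0 CPM at 14 dpi. The 0 in 14 dpi replicate 4 was a count of 0 in 31.2 M, which allows up to 0.0962 CPM (3 counts, counting error only). All 7 dpi libraries were above all intact and 14 dpi libraries, but they spread more widely than for the other 4 genes, with a coefficient of variation of 42.4%. The mean was 1.23 ± 1.02 CPM in intact nerve (SD, n = 5), 9.33 ± 3.95 CPM at 7 dpi (SD, n = 5) and 0.844 ± 0.936 CPM at 14 dpi (SD, n = 4). The differences from intact were 2.26 at 7 dpi and -0.28 at 14 dpi in mean log2(CPM + 1).

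The relatives of Slco4a1 differed among themselves in the direction of their means. Slco1a4, a transporter of barrier endothelium in the brain, averaged 863 CPM in intact nerve, 19.7 CPM at 7 dpi and 83.5 CPM at 14 dpi, and Slco1c1, the thyroxine transporter of barrier vessels, 22.6, 0.591 and 0.951 CPM. Slco2a1, a prostaglandin transporter, averaged 240, 283 and 253 CPM, Slco2b1 309, 140 and 243 CPM, and Slco3a1 21.6, 31.8 and 23.7 CPM in the same order of groups. Per length at 7 dpi Slco4a1, with 2.89 CPM per kilobase, was below Slco2a1 at 39.7, Slco2b1 at 26.3, Slco1a4 at 5.14 and Slco3a1 at 4.37, and above the other 10 genes of the family, of which Slco1c1 was highest at 0.180. The values of these relatives were looked up after the 5 genes were known and are given with no test.

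Smpdl3b, the lipid phosphodiesterase, had 5.30, 1.897, 4.44, 0.732 and 4.51 CPM in the intact libraries, 17.01, 16.3, 20.5, 17.9 and 14.0 CPM at 7 dpi, and 4.25, 5.40, 3.36 and 4.68 CPM at 14 dpi. The 7 dpi libraries were the most even of the 5 genes, with a coefficient of variation of 13.9%, and all lay above the other groups. The mean was 3.38 ± 1.96 CPM in intact nerve (SD, n = 5), 17.1 ± 2.38 CPM at 7 dpi (SD, n = 5) and 4.42 ± 0.849 CPM at 14 dpi (SD, n = 4). It was the highest of the 5 per length, at 8.54 CPM per kilobase at 7 dpi, ahead of Crmp1 at 5.82, Madcam1 at 5.79, Slco4a1 at 2.89 and Mcm10 at 2.62. Its differences from intact, 2.19 at 7 dpi and 0.45 at 14 dpi in mean log2(CPM + 1), were the closest of the 5 to both limits. Without intact replicate 4 the 7 dpi difference was 1.897, and without intact replicate 1, 3 or 5 or 14 dpi replicate 3 the 14 dpi difference was 0.55 to 0.62, all outside the rule. Its relatives ran the other way in their means: Smpd1, acid sphingomyelinase, averaged 158 CPM in intact nerve, 91.5 CPM at 7 dpi and 106 CPM at 14 dpi, and Smpdl3a 140, 59.8 and 98.5 CPM.

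**Figure D3:**
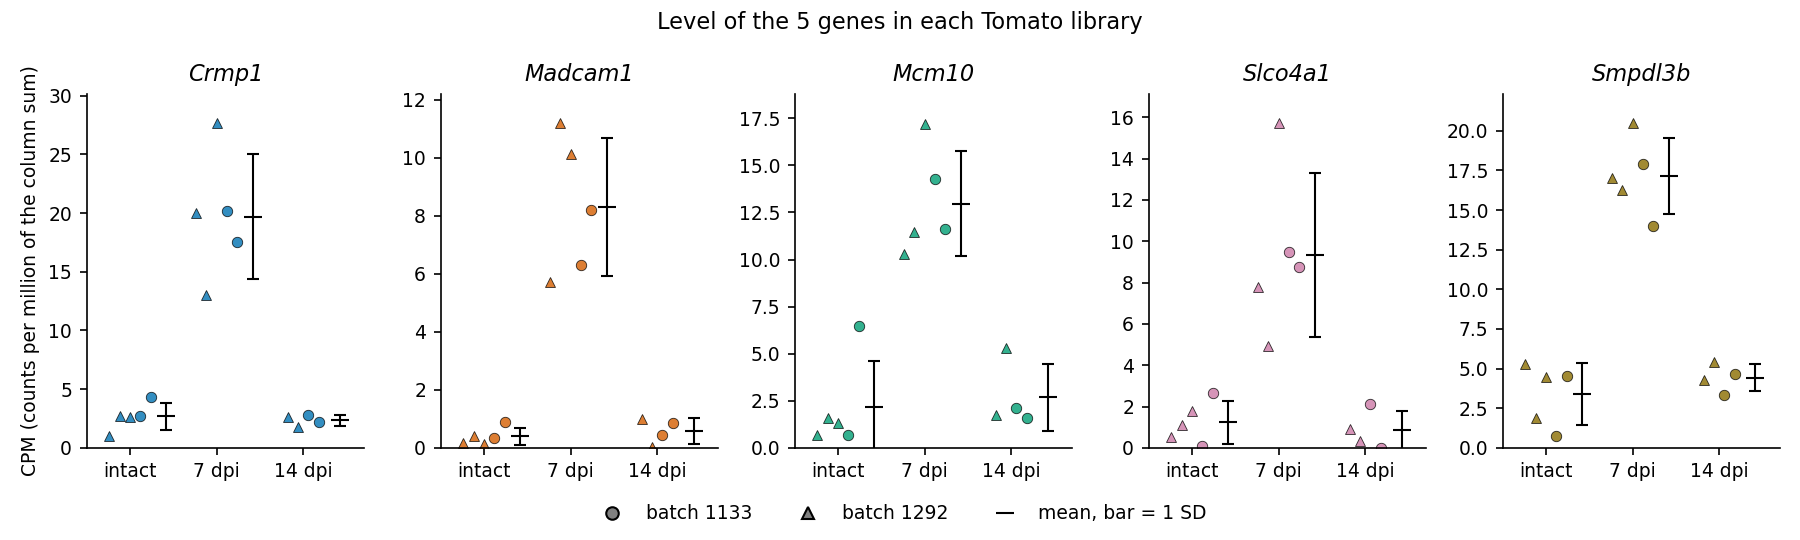
CPM of the 5 genes in each Tomato library at intact (n = 5), 7 dpi (n = 5) and 14 dpi (n = 4), with circles for batch 1133, triangles for batch 1292, and the mean with 1 SD to each side beside the points; bars that would pass below 0 end at the axis. In every panel the 7 dpi libraries lie above all others, and the intact and 14 dpi libraries overlap, a pattern that the selection favours.

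Among the 7 dpi libraries the coefficients of variation of the 5 genes were 13.9% to 42.4%, of which counting alone gives 4.51% to 6.97%. The 7 dpi replicate 3 was the highest library for Crmp1, Mcm10, Slco4a1 and Smpdl3b. It also had the highest endothelial marker sum of the 7 dpi libraries, 16624 CPM, and the lowest fibroblast and macrophage marker sums, 5125 and 249 CPM; the part of this in the 4 values was not tested. Madcam1 was highest in 7 dpi replicate 2, the library in which Crmp1 and Slco4a1 were lowest. Within each batch, Crmp1, Madcam1 and Slco4a1 met both limits of the rule, with 7 dpi minus intact differences of 2.16, 2.35 and 2.33 in batch 1133 and 2.75, 2.97 and 2.21 in batch 1292. Mcm10 was at 1.98 in batch 1133 and 2.66 in batch 1292, and Smpdl3b at 2.45 and 2.02, with a 14 dpi minus intact difference of 0.69 in batch 1133 and 0.32 in batch 1292.

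The Cherry libraries, all at 7 dpi and not used by the rule, had the 5 genes at levels near those of the 7 dpi Tomato libraries. All 6 Cherry libraries were above the highest intact or 14 dpi Tomato library for all 5 genes. That held for 9.85% of the 16227 genes tested in the Cherry experiment and for 76.7% of the other 317 genes that met the 7 dpi conditions and were tested there. The intact and 14 dpi levels in this comparison were used by the rule. It holds the 14 dpi level of the 5 genes near intact and leaves higher 14 dpi levels to the other genes. The contrast with those genes may therefore follow from the selection, and no conclusion is drawn from it. The lowest Cherry library had 17.2 CPM of Crmp1, 7.84 CPM of Madcam1, 12.9 CPM of Mcm10, 4.20 CPM of Slco4a1 and 14.3 CPM of Smpdl3b. The highest intact or 14 dpi library had 4.29, 0.997, 6.48, 2.66 and 5.40 CPM of the same genes. The 2 experiments differ in reporter and were normalized separately, so these levels are set side by side as a description.

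The comparison of KO with WT cells asked whether loss of endothelial Plexin-D1 changed these genes at 7 dpi. Plxnd1 itself had 125, 158 and 163 CPM in KO libraries, against 359, 316 and 357 CPM in WT libraries, and fell by 1.23 ± 0.10 on the log2 scale (SE; edgeR, adjusted p = 1.3e-04). Of the 5 genes, 0 were called at an adjusted p under 0.05 by edgeR, against 0.308% of all 16227 genes tested (50 genes; 0.129% called higher and 0.179% lower). At an unadjusted p under 0.05 there were 2, Slco4a1 and Mcm10, against 11.5% of all genes, and DESeq2 called 1, Slco4a1. The median log2 fold change of the 5 was 0.30, and 3 of 5 were positive, against a median of -0.01 and 48.6% positive over all genes.

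Slco4a1 had 21.04, 15.5 and 16.04 CPM in KO libraries, against 19.3, 10.0 and 4.20 CPM in WT libraries. The WT libraries spread almost over the whole range, WT replicate 3 being lowest, and the groups overlapped. The mean was 17.5 ± 3.05 CPM in KO cells and 11.2 ± 7.60 CPM in WT cells (SD, n = 3 each). The log2 fold change of KO over WT, with batch in the fit, was 1.24 ± 0.35 (SE, 95% interval 0.47 to 2.02; edgeR, adjusted p = 0.232), which did not pass the threshold. It passed with DESeq2, at 1.27 and an adjusted p of 0.00316. Leaving out WT replicate 3 gave 0.61 and leaving out KO replicate 1 gave 1.96. These were the lowest and highest values over single libraries left out, where edgeR adjusted p ran from 0.0508 to 0.556. WT replicate 3 is the only WT library of batch 1133, and KO replicate 1 the only KO library of batch 1292. Without either, that batch holds 1 genotype, and the contrast comes from the other batch alone. These 2 values therefore do not isolate the influence of a single library. Within batch 1133, KO cells averaged 15.8 CPM (n = 2) and WT cells had 4.20 CPM (n = 1), and within batch 1292 KO cells had 21.04 CPM (n = 1) and WT cells averaged 14.7 CPM (n = 2).

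Mcm10 had 17.6, 15.6 and 16.6 CPM in KO libraries, against 12.9, 13.6 and 12.9 CPM in WT libraries. The groups did not overlap, KO being higher, which was true of 4.14% of all genes tested, and of 11.8% in either direction. The log2 fold change was 0.43 ± 0.17 (SE, 95% interval 0.06 to 0.80; edgeR, adjusted p = 0.361), which did not pass. Of the 52 other replication genes, 0 were called in either direction by edgeR, and their median log2 fold change was 0.24. KO was the higher group for Mcm10 within both batches, at 16.1 and 12.9 CPM for KO and WT cells in batch 1133 and at 17.6 and 13.2 CPM in batch 1292.

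Madcam1 had 7.84, 12.01 and 10.5 CPM in KO libraries, against 11.6, 12.4 and 13.3 CPM in WT libraries. The ranges overlapped narrowly, with KO replicate 2 above WT replicate 1. The log2 fold change was -0.36 ± 0.21 (SE, 95% interval -0.80 to 0.09; edgeR, adjusted p = 0.525), an interval that holds 0. Of the 22 tested genes of its list, 3 fell and 0 rose. Sele, E-selectin, had 265, 332 and 313 CPM in KO libraries and 428, 410 and 589 CPM in WT libraries (log2 fold change -0.70 ± 0.10, SE; edgeR, adjusted p = 0.00994), and Icam1 had 297, 484 and 416 CPM in KO libraries and 456, 439 and 803 CPM in WT libraries (-0.65 ± 0.11, SE; edgeR, adjusted p = 0.0248).

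Crmp1 had 18.5, 21.5 and 22.6 CPM in KO libraries, against 30.2, 23.6 and 17.2 CPM in WT libraries. The KO values fell between those of WT replicates 3 and 1. KO over WT gave a log2 fold change of -0.02 ± 0.21 (SE, 95% interval -0.47 to 0.43; edgeR, adjusted p = 0.980), and its sign differed between the batches: KO cells were at 22.1 CPM and WT cells at 17.2 CPM in batch 1133, and KO cells at 18.5 CPM and WT cells at 26.9 CPM in batch 1292. Smpdl3b had 26.0, 15.3 and 18.6 CPM in KO libraries, against 23.7, 21.1 and 14.3 CPM in WT libraries. Its groups overlapped almost fully, and within each group the libraries of batch 1292 were higher. The log2 fold change was 0.30 ± 0.16 (SE, 95% interval -0.04 to 0.64; edgeR, adjusted p = 0.490). Of the 17 tested genes of the cytoskeleton list besides Crmp1, 0 were called by edgeR, with a median of 0.18.

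**Figure D4:**
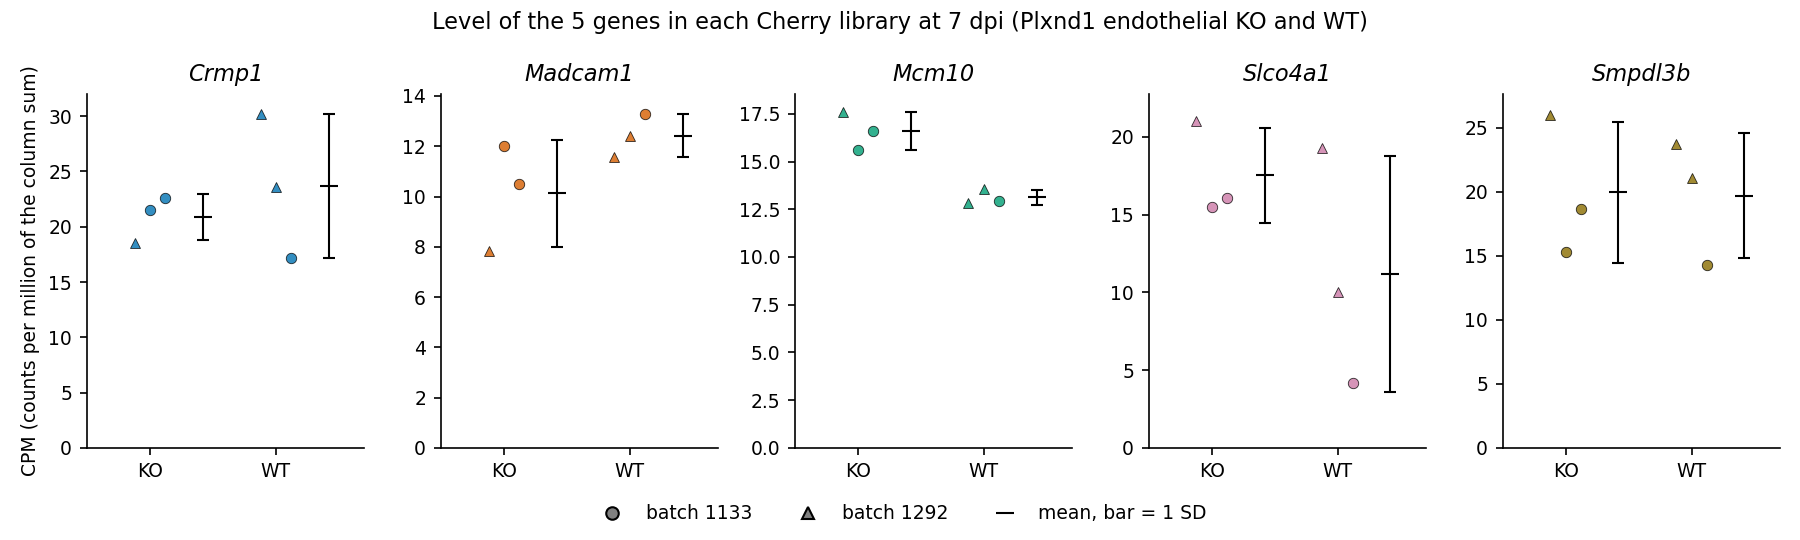
CPM of the 5 genes in each Cherry library at 7 dpi, KO left and WT right (n = 3 each), with circles for batch 1133, triangles for batch 1292 and the mean with 1 SD to each side beside the points. Mcm10 is the gene whose groups do not overlap, and the WT libraries of Slco4a1 run from 4.20 to 19.3 CPM.

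**Figure D5:**
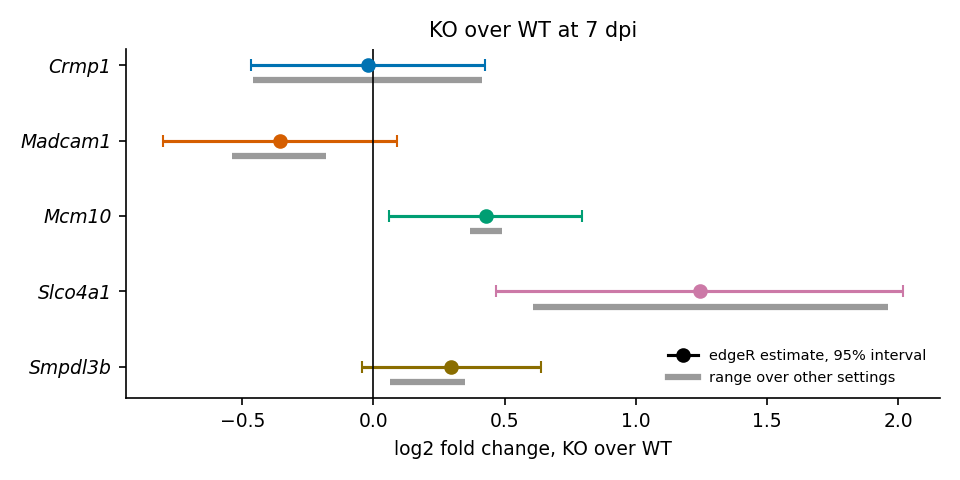
Points give the log2 fold change of KO over WT for the 5 genes with 95% intervals from edgeR, and grey bars the lowest and highest value over 14 other settings of the analysis. Slco4a1 lies at 1.24 with a bar of 0.61 to 1.96, and the bar of Crmp1 runs from -0.46 to 0.42 across 0.

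The 3 groups at 7 dpi had the highest means for all 5 genes. Mcm10, Slco4a1 and Smpdl3b had the highest mean in KO, then WT, then 7 dpi Tomato libraries, while Crmp1 and Madcam1 were highest in WT, then KO, then 7 dpi Tomato libraries. Among these 3 groups at 7 dpi, neighbours in that order overlapped in their ranges for every gene except KO and WT for Mcm10. The step from 7 dpi Tomato libraries to the next lower group, intact for Crmp1 and Slco4a1 and 14 dpi for the other 3, was without overlap for all 5 genes, and the intact and 14 dpi libraries overlapped for all 5. The selection favours both patterns, and the share of all genes that show them was not computed.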

How the data were processed

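Each experiment has 1 deposited table of unnormalized counts, whole numbers for every gene, and there is a further Cherry table in which the authors removed batch differences with ComBat-Seq. The submitters' processing notes name Trimmomatic 0.39, STAR 2.5.3a, featureCounts 1.6.4 and Cell Ranger 3.0.2, with build mm10 (GRCm38). The strand setting is not given. CPM was computed from column sums. Models were fitted in R 4.3.3 with edgeR 4.0.16 (low-count filter filterByExpr, TMM, robust quasi-likelihood test, batch as covariate, Benjamini-Hochberg adjustment over all genes tested, threshold 0.05), 1 fit per experiment. The SE is approximate: the size of the log2 fold change over the root of F. All 5 genes passed the filter in both tables. The fits were tested on simulated data. DESeq2 1.42.0 was an alternative. No libraries were duplicates (chi-square per degree of freedom 15.4 to 121 in 32 within-group pairs). The 5 genes and all lists were chosen with earlier results of these data known. The naming rule took all 5 genes, genes next to the thresholds and, of lists, the first 2 called in KO; family members and list genes past the 7 dpi conditions lie outside it and were named after their values were seen.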

Additional observations from a re-analysis of the deposited data

Results flagged for a closer look

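Of the 15 groups of 4 or 5 Tomato libraries examined for the 5 genes (10 groups of 5 and 5 groups of 4), 2 held a library far from the rest, both for Mcm10, and chance alone marks about 1 group in 20. In 14 dpi replicate 2 Mcm10 was at 5.32 CPM, against 1.57 to 2.11 CPM in the other 3 libraries at 14 dpi. In intact replicate 5 it was at 6.48 CPM, against 0.668 to 1.598 CPM in the other 4 intact libraries. The 60 mitosis genes also had their highest median level of intact nerve in intact replicate 5, 2.55 against 1.34 to 1.73 in log2(CPM + 1), and their highest median at 14 dpi in 14 dpi replicate 2, 3.70 against 3.32 to 3.46.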

How the results depend on the processing

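Which genes met the rule depended on its settings. The count of 5 was 1 with a pseudocount of 5 (0 of the 5 kept), 0 with at least 20 CPM at 7 dpi, 2 with a 14 dpi limit of 0, 58 with a limit of 1, 9 with group medians, 18 in batch 1133 alone, 14 in batch 1292 alone and 5 to 12 with 1 library left out. Crmp1, Madcam1 and Slco4a1 were kept in all 14 settings that left out 1 library, Mcm10 in 12 and Smpdl3b in 9. Over all 24 other settings Crmp1 and Slco4a1 were kept in 22, Madcam1 in 21, Mcm10 in 17 and Smpdl3b in 12. Smpdl3b was lost with TMM-scaled CPM, with a pseudocount of 0.5 and with group medians. Calls in KO against WT, 50, were 230 with no filter, 241 with DESeq2, 5 with no batch term, 31 in batch 1292 alone, 550 on the ComBat-Seq counts, 79 at an adjusted p under 0.1 and 6 to 40 with 1 library left out. Of the 5 genes, 1 was called, Slco4a1, with no filter (log2 fold change 1.23, adjusted p = 6.2e-05), with DESeq2 (1.27), in batch 1133 alone (1.96, adjusted p = 0.00876) and on the ComBat-Seq counts (1.62, adjusted p = 0.0230), and 0 with any 1 library left out. Batch 1133 alone has 1 WT library, the lowest for Slco4a1, and batch 1292 alone 1 KO library, so those fits assume that the lone library varies like the other group. Crmp1 in KO over WT changed sign in batch 1133 alone (0.41), on the ComBat-Seq counts (0.18), without KO replicate 1 (0.42) and without WT replicate 1 (0.10). Its range was -0.46 to 0.42 over single libraries left out. Without KO replicate 1 the contrast comes from batch 1133, so that setting and batch 1133 alone are not separate evidence. Calls at 14 dpi against 7 dpi, 2027, were 3255 with DESeq2, 1226 with no batch term, 366 and 726 in batches 1133 and 1292 alone, and 1305 to 2656 with 1 library left out, the lowest without 14 dpi replicate 2. Calls at 7 dpi against intact, 6535, were 2042 in batch 1133 alone, and at 14 dpi against intact, 2439, they were 795 in batch 1133 alone and 1500 in batch 1292 alone. The cause was not tested, but a batch alone holds fewer libraries. The spread between libraries limits the low levels, with coefficients of variation of 43.1% to 114% in intact nerve. No paired analysis was possible because the labels give no replicate number that libraries of different groups share; those used here only name libraries in accession order.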

Other observations

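Some genes entered when the rule was changed a little, over 19 settings (each of the 14 Tomato libraries left out, other pseudocounts, TMM-scaled CPM, group medians and a lower CPM minimum), and were named after their values were seen. Actg2, a smooth muscle actin, entered in 5 settings and differed from intact by 1.91 at 7 dpi and -0.08 at 14 dpi in mean log2(CPM + 1). Nup210 and Pif1 entered in 4 settings each, and Fanca, a DNA repair gene, Pask and Serpina3g, a protease inhibitor, in 3 each. Nts, which encodes the peptide neurotensin, entered in 2, with 1.86 at 7 dpi and -0.83 at 14 dpi, below intact nerve. H19, a long noncoding RNA, entered in 2 and had the highest level of these genes, with a mean of 213 CPM at 7 dpi.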
